A study of Mus musculus with 9 samples.

Results

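The unfolded protein response and the chaperones of the endoplasmic reticulum (ER) were examined through 40 genes, chosen by function from a list of symbols and looked up in the table of 55335 genes, where each symbol matched 1 gene. RNA was sequenced from BV2 cells, an immortalised mouse microglial line with a wild-type genotype label, grown in DMEM with serum. There were 3 groups of 3 libraries each: cells kept for 24 h at 1% oxygen with 100 µM ethanolamine, cells kept for 24 h at 1% oxygen without it, and control cells labelled 0 h. The control group therefore differed from both hypoxic groups in labelled time as well as in oxygen, and these cannot be told apart. A treatment tag on the control samples names adipogenic differentiation, against their titles and the design text, and of 8 adipocyte markers 5 were listed at 0 in all 9 libraries, Cidec and Pparg stayed under 0.25 FPKM, and Fabp4 had 16.0 to 27.0 FPKM, with 16.0 to 21.8 FPKM in control cells. The labels do not say whether the libraries of a group came from separate cultures, and the p-values then measure the spread between these libraries, which may be technical.

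Proteins that enter the ER are folded there by chaperones, disulfide isomerases and lectins that bind their sugar chains. When unfolded proteins accumulate, the sensors IRE1 (gene Ern1), ATF6 and PERK signal to the nucleus. IRE1 splices the Xbp1 mRNA and ATF6 is cut to release a transcription factor, and the products raise transcription of chaperones and of the machinery that returns misfolded proteins to the cytosol for degradation, called ER-associated degradation (ERAD). In microglia and macrophages this system carries the load of secreted and surface proteins.

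Levels are FPKM (fragments per kilobase of transcript, scaled to the library), which corrects for transcript length, so levels may be set side by side between genes. Summed over the 40 genes, FPKM made up 0.536 to 0.579% of the library total with ethanolamine under hypoxia, 0.607 to 0.632% under hypoxia alone, and 0.663 to 0.685% in control cells, and no group overlapped another. The library totals differed too, at 350298 to 370322 FPKM with ethanolamine, 345068 to 350112 under hypoxia and 324121 to 331189 in control cells. The 40 genes themselves summed to a mean of 1998 FPKM with ethanolamine, 2142 under hypoxia and 2213 in control cells. Within these sums Ssr2, whose counting is uncertain (described further on), averaged 116 FPKM with ethanolamine, 132 under hypoxia and 201 in control cells. Ribosomal RNA-like and mitochondrially encoded transcripts took 18.9 to 23.5% of the total with ethanolamine, 17.6 to 23.1% under hypoxia and 13.6 to 19.9% in control cells, and their part in these shares was not tested. Depth is unknown from FPKM. The microglia and macrophage markers were present in part: 12 of 15 averaged at least 1 FPKM, while Aif1, P2ry12 and Tmem119 stayed below that in every library. The summed level of those 15 markers was 1612 to 1654 FPKM with ethanolamine, 1551 to 1733 FPKM under hypoxia and 1226 to 1484 FPKM in control cells.

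The 40 genes spanned a wide range of levels. Calr, encoding the calcium-binding lectin chaperone calreticulin, was the most abundant, with 439, 446 and 425 FPKM in the ethanolamine libraries, 445, 430 and 458 FPKM under hypoxia, and 466, 435 and 448 FPKM in control cells. Hsp90b1, the ER member of the Hsp90 family, had 175, 183 and 165 FPKM with ethanolamine, 193, 211 and 194 FPKM under hypoxia, and 184, 186 and 189 FPKM in control cells. Pdia3, a disulfide isomerase that works with the lectin chaperones, followed with 142, 163 and 146 FPKM with ethanolamine, 161, 154 and 155 FPKM under hypoxia, and 139, 160 and 142 FPKM in control cells. The 3 groups overlapped for Calr and Pdia3, and for Hsp90b1 the hypoxia libraries were the highest. At the other end, Derl3, a derlin of the ERAD channel, was listed at 0, 0.0354 and 0 FPKM with ethanolamine, at 0 in all 3 hypoxia libraries, and at 0.150, 0.110 and 0.0792 FPKM in control cells. Derl3 was the only 1 of the 40 to miss the filter on low values, a mean of 1 FPKM over the 9 libraries. The spread between libraries of a group was small for most genes: the SD was a median of 5.24% of the mean over 117 gene and group pairs, at or under 10% in 94 of them and over 20% in 5.

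**Figure D1:**
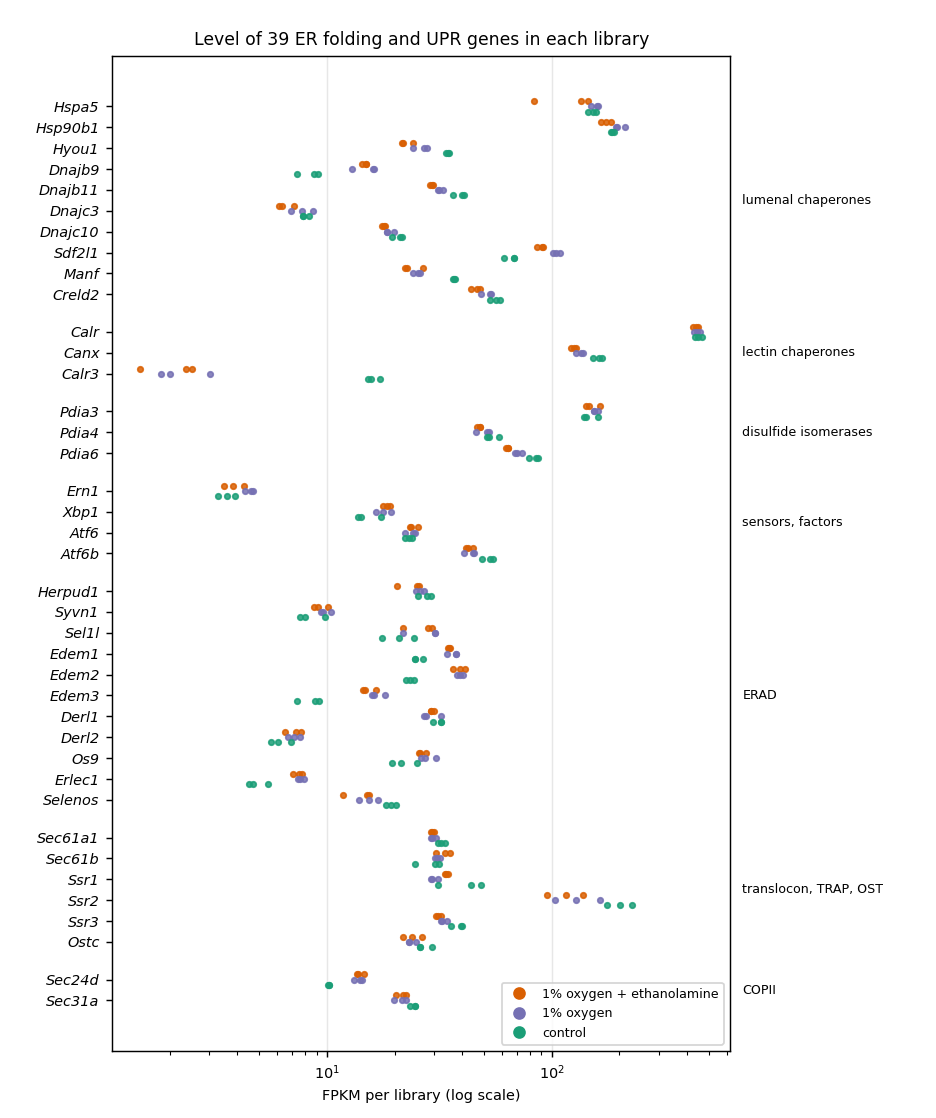
FPKM of the 39 genes that passed the filter, on a log axis, grouped by role (OST, oligosaccharyltransferase), with 1 point per library (3 libraries per group). Calr lies highest, from 425 to 466 FPKM, Calr3 averages 2.12 FPKM with ethanolamine and 2.28 FPKM under hypoxia against 16.1 FPKM in control cells, and 1 ethanolamine library stands apart for Hspa5.

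Under hypoxia, the ERAD genes Edem1, Edem2, Edem3, Os9 and Erlec1 rose, and Calr3, Manf and Hyou1 fell. Among the abundant chaperones, Calr, Hsp90b1, Hspa5 and Pdia3 did not pass the test, while Canx and Pdia6 fell. Of the 39 genes tested, 9 were higher and 12 lower in hypoxia than in control cells (limma, Benjamini-Hochberg adjusted p under 0.05 over 11802 genes). That is 53.8% called, against 59.4% of all genes tested. By direction it is 23.1% higher against 24.7%, and 30.8% lower against 34.7%, so in this fit the share of these genes called lay near that of all genes. The median log2 change of the 39 was -0.04, against -0.09 for all genes. Median-of-ratios scaling gave 14 higher and 8 lower, or 35.9% higher against 29.2% of all genes and 20.5% lower against 30.0%. Quantile normalisation gave 13 higher and 9 lower, or 33.3% higher against 28.1% of all genes and 23.1% lower against 30.9%. Without control library 3 the lower calls were 7, or 17.9% against 31.5% of all genes. Since these are bulk samples, fewer cells of a type and less RNA per cell cannot be told apart.

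**Figure D2:**
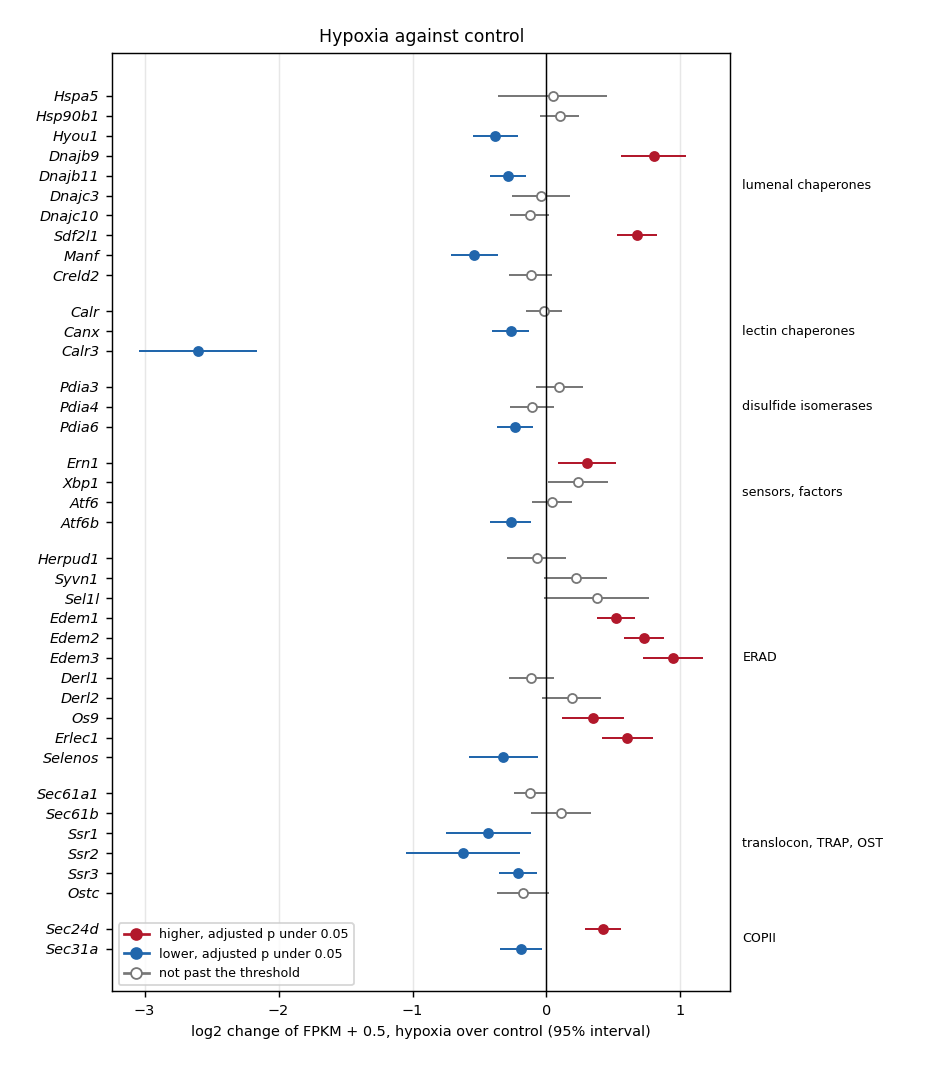
log2 change of FPKM + 0.5, hypoxia over control, with its 95% interval for each of the 39 tested genes by role. The 3 EDEM genes, Os9, Erlec1, Dnajb9 and Sdf2l1 lie to the right of 0, and Calr3 lies farthest left at -2.60.

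Among the 10 lumenal chaperones and co-chaperones, 2 rose, 3 fell and 5 did not pass the test under hypoxia. Over all genes tested, 24.7% were higher and 34.7% lower, so the counts for these 10 lay near those of all genes. Hspa5 (BiP, Grp78), the ER Hsp70 that holds the sensors inactive, is at chr2:34771970-34777547 on GRCm38. It had 83.2, 146 and 134 FPKM with ethanolamine, 159, 161 and 150 FPKM under hypoxia, and 153, 145 and 158 FPKM in control cells. Its hypoxia and control libraries overlapped, and the log2 change was 0.05 ± 0.18 (SE; adjusted p = 0.842). Dnajb9 (chr12:44205559-44210326), a J-domain partner of Hspa5 and an IRE1 and XBP1 target, had 14.4, 15.0 and 14.9 FPKM with ethanolamine, 16.1, 16.2 and 12.9 FPKM under hypoxia, and 7.40, 8.79 and 9.11 FPKM in control cells. All 6 hypoxic libraries were above the control libraries, and the log2 change under hypoxia was 0.80 ± 0.10 (SE, adjusted p = 0.000145). Sdf2l1 (chr16:17130138-17132383), which works with Hspa5 and its J-domain partners, had 85.9, 90.1 and 91.9 FPKM with ethanolamine, 109, 101 and 105 FPKM under hypoxia, and 67.8, 61.0 and 67.6 FPKM in control cells. The 3 groups did not overlap, and the log2 change under hypoxia was 0.68 ± 0.06 (SE, adjusted p = 1.49e-05).

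The chaperones that fell were Manf, Hyou1 and Dnajb11. Manf (chr9:106838312-106891979), a secreted ER stress protein first described as a neurotrophic factor, had 22.8, 26.7 and 22.3 FPKM with ethanolamine, 24.0, 26.0 and 25.4 FPKM under hypoxia, and 36.7, 37.1 and 36.4 FPKM in control cells. Both hypoxic groups lay below control, and the log2 change under hypoxia was -0.54 ± 0.07 (SE, adjusted p = 0.000188). The annotated span of Manf covers Rbm15b on the same strand, whose FPKM averaged 6.87 with ethanolamine, 6.77 under hypoxia and 10.3 in control cells. It also overlaps Dcaf1 on the opposite strand over 42681 bases. Dcaf1 averaged 6.13 FPKM with ethanolamine, 6.17 FPKM under hypoxia and 8.46 FPKM in control cells. How reads were divided there is uncertain. Hyou1 (Grp170), the exchange factor that frees Hspa5 of ADP, had 24.3, 21.6 and 21.8 FPKM with ethanolamine, 24.1, 27.0 and 28.0 FPKM under hypoxia, and 35.0, 33.8 and 34.6 FPKM in control cells. It fell by 0.38 on the log2 scale under hypoxia (adjusted p = 0.00136), with no overlap with control. Dnajb11 (ERdj3), another J-domain partner, averaged 31.9 ± 0.89 FPKM under hypoxia and 39.0 ± 2.27 FPKM in control cells (SD, n = 3 each), a log2 change of -0.29 (adjusted p = 0.002). The co-chaperones Dnajc3 and Dnajc10, the folding factor Creld2 and Hsp90b1 did not pass the test, with log2 changes of -0.04, -0.13, -0.12 and 0.10. Hsp90b1 passed under median-of-ratios scaling (0.20, adjusted p = 0.0167).

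Of the 3 lectin chaperones, which hold glycoproteins during folding, calreticulin (Calr) did not pass the test, at a log2 change of -0.02 and a 95% interval of -0.14 to 0.11; under quantile normalisation it was called lower (-0.22, adjusted p = 0.025). Its membrane-bound counterpart calnexin (Canx) averaged 134 ± 5.17 FPKM under hypoxia and 161 ± 7.51 FPKM in control cells (SD, n = 3 each), and fell by 0.27 on the log2 scale (adjusted p = 0.00289). Calr3 (chr8:72424176-72443870), a calreticulin paralogue known mainly from testis, moved farthest of the 39 genes. It had 2.51, 2.36 and 1.48 FPKM with ethanolamine, 1.99, 1.82 and 3.01 FPKM under hypoxia, and 15.8, 15.2 and 17.2 FPKM in control cells. Both hypoxic groups lay far below control, with a log2 change of -2.60 ± 0.19 under hypoxia (SE; adjusted p = 3.83e-06). Its level in control cells was 16.1 ± 1.01 FPKM, against 450 ± 15.3 FPKM for Calr (SD, n = 3 each). Of the disulfide isomerases, Pdia6 fell by 0.24 on the log2 scale (adjusted p = 0.00475), while Pdia3 and Pdia4 did not pass the test at 0.09 and -0.11.

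Promoter windows were searched for recognition sequences of the pathway. The search took exact letters only, so variant or more distant elements would be missed. Windows of 300 bases, from 250 before to 50 after the RefSeq start site on GRCm38.p6, were held for 32 of the 40 genes. The other 8, Atf6, Derl1, Erlec1, Hyou1, Manf, Ostc, Sec61a1 and Ssr2, were not searched. The windows held were searched on both strands. The ER stress element was taken as CCAAT followed, after any 9 bases, by CCACG. ERSE-II was taken as ATTGG followed, after any 1 base, by CCACG, and the UPRE as TGACGTGG. The first 2 are built from the same parts, and the UPRE contains the core TGACGT and the hypoxia-factor core ACGTG. The ER stress element was found in 9 of the 32 genes, namely Calr, Canx, Creld2, Derl3, Dnajc3, Hsp90b1, Hspa5, Pdia6 and Syvn1, and in 0.119% of all 32851 windows in the table. ERSE-II was found in Herpud1 and Dnajb11 (0.0365% of all windows) and the UPRE in Sec24d (0.676%). The core TGACGT was found in 4 genes (7.51% of all windows) and ACGTG in 16 (19.6%). Of the 15 tested genes with ACGTG, 5 were higher and 6 lower under hypoxia, where 24.7% of all genes tested were higher and 34.7% lower. The 250 bases upstream are printed for 5 abundant chaperone genes with the ER stress element, for Herpud1 with ERSE-II and Sec24d with the UPRE, and for Dnajb9 and Edem3, which rose under hypoxia and held none of these 3 longer elements. Capitals mark the matched element. In Calr and the second element of Hsp90b1 it reads on the opposite strand.
Hspa5 (chr2:34771840-34772089, + strand): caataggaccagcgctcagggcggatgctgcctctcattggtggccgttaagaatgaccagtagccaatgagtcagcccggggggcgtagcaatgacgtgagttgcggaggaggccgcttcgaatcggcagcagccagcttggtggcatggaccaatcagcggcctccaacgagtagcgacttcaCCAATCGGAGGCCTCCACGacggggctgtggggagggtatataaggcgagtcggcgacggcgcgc
Hsp90b1 (chr10:86705445-86705694, - strand): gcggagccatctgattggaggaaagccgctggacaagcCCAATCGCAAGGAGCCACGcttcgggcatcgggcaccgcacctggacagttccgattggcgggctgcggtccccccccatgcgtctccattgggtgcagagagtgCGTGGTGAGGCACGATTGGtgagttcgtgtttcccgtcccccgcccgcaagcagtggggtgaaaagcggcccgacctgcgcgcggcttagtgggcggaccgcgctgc
Calr (chr8:84846932-84847181, - strand): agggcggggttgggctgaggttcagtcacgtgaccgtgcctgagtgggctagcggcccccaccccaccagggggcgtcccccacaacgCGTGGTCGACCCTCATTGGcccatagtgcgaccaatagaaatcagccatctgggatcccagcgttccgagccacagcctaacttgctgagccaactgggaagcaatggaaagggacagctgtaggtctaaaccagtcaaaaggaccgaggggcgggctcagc
Canx (chr11:50325674-50325923, - strand): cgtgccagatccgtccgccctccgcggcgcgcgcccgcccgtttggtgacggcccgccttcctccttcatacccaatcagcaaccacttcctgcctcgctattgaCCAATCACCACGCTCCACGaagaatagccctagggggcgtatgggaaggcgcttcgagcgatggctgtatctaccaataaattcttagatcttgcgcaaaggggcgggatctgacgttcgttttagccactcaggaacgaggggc
Pdia6 (chr12:17266339-17266588, + strand): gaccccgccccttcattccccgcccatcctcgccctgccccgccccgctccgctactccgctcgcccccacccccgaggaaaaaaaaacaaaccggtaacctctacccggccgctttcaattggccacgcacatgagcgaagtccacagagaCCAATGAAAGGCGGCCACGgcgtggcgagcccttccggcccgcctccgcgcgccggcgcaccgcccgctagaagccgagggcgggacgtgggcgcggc
Herpud1 (chr8:94386179-94386428, + strand): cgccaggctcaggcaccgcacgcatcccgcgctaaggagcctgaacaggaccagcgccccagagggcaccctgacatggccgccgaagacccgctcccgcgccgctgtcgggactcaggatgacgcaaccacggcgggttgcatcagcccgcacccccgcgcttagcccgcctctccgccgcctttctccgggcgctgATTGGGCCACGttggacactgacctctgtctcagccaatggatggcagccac
Sec24d (chr3:123267246-123267495, + strand): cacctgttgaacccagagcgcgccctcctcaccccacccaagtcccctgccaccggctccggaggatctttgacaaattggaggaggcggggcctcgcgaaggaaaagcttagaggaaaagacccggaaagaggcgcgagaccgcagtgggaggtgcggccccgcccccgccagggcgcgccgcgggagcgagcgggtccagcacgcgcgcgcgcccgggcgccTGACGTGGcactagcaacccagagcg
Dnajb9 (chr12:44210069-44210318, - strand): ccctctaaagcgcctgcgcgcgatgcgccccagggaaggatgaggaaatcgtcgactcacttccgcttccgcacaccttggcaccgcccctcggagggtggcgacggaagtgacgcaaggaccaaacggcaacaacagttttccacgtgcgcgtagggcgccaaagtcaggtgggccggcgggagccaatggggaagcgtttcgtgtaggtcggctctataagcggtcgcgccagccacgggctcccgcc
Edem3 (chr1:151755124-151755373, + strand): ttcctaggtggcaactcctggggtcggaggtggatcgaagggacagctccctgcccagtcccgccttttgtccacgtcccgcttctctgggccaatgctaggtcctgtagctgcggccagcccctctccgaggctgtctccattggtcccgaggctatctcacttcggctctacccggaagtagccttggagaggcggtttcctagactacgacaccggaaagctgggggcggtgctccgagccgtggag

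None of the tested genes with the ER stress element was called higher under hypoxia in the fit as reported, while Hsp90b1 and Syvn1 were under median-of-ratios scaling. Syvn1 was also called higher under quantile normalisation and without control library 1. Of the 8 tested genes whose window held it, 0 rose and 2 fell (Canx and Pdia6), with log2 changes from -0.27 to 0.22 and a median of -0.03. Of the 23 tested genes whose window did not hold it, 8 rose and 7 fell, with a median log2 change of 0.11. Of all genes tested, 24.7% were higher and 34.7% lower under hypoxia. No test was made of the difference between genes with and without the element. The element lay 65 to 47 bases before the start site in Hspa5, 145 to 127 in Canx, and at 2 places in Hsp90b1, 212 to 194 and 107 to 89 bases before it. A match in letters is not a bound site.

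The sensors and transcription factors moved little. Ern1 (IRE1) had 4.28, 3.47 and 3.81 FPKM with ethanolamine, 4.70, 4.59 and 4.32 FPKM under hypoxia, and 3.61, 3.89 and 3.28 FPKM in control cells. Hypoxia and control libraries did not overlap, and Ern1 rose by 0.30 ± 0.09 on the log2 scale (SE; adjusted p = 0.0198). The call was lost without hypoxia library 1 (adjusted p = 0.0612), hypoxia library 2 (0.0514) or control library 3 (0.0757). Xbp1, the substrate of IRE1, had 17.7, 18.5 and 19.1 FPKM with ethanolamine, 19.3, 16.5 and 17.8 FPKM under hypoxia, and 14.2, 13.8 and 17.5 FPKM in control cells. Control library 3 reached into the hypoxic range, and the log2 change of 0.24 ± 0.10 did not pass the test (SE; adjusted p = 0.061). It passed under median-of-ratios scaling (0.33, adjusted p = 0.0162), under quantile normalisation (0.33, adjusted p = 0.0163), without control library 3 (0.34, 0.00804) and without hypoxia library 2 (0.29, 0.0464). Values per gene do not tell the spliced Xbp1 mRNA from the unspliced one, so they do not measure IRE1 activity. Atf6 had 25.5, 23.6 and 23.5 FPKM with ethanolamine, 22.3, 24.7 and 24.2 FPKM under hypoxia, and 22.2, 23.8 and 23.1 FPKM in control cells. These overlapped, with a log2 change of 0.04 ± 0.06 (SE; adjusted p = 0.624). Atf6b, its paralogue, had 42.5, 41.7 and 44.5 FPKM with ethanolamine, 40.6, 44.5 and 44.9 FPKM under hypoxia, and 54.8, 48.8 and 53.2 FPKM in control cells. Every control library was above every hypoxic one, and Atf6b fell by 0.27 on the log2 scale (adjusted p = 0.00612).

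ERAD held 5 of the 9 genes that rose. Of its 11 tested genes, 5 rose (45.5%, against 24.7% of all genes), 1 fell (9.09%, against 34.7%) and 5 did not pass the test, with a median log2 change of 0.35. These shares carry no test, and the 25 other ERAD genes described further on gave 24.0% higher and 32.0% lower. The EDEM proteins trim mannose from the sugar chains of glycoproteins that fail to fold, and the lectins encoded by Os9 and Erlec1 recognise the trimmed chains. All 5 of these rose, and their calls held under all 19 other settings. For Os9 the margin was narrow, with an adjusted p of up to 0.05 after rounding, against up to 0.00104 for Erlec1. Grouped after their values were seen, the 5 summed to 127, 129 and 128 FPKM under hypoxia, against 85.1, 82.4 and 84.5 FPKM in control cells. In the N-glycan processing list described further on, 1 of 11 tested genes rose (9.09%) and 7 fell (63.6%). Among the 7 were Man1b1 (log2 change -0.35) and Uggt1 (-0.21), named after their values were seen.

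Edem3 (chr1:151755371-151822051) had 16.6, 14.5 and 14.8 FPKM with ethanolamine, 16.2, 18.1 and 15.9 FPKM under hypoxia, and 7.38, 9.20 and 8.88 FPKM in control cells. Its log2 change of 0.94 ± 0.10 under hypoxia was the largest rise among the 39 (SE; adjusted p = 2.94e-05). Edem2 (chr2:155701677-155729475) had 41.2, 36.3 and 38.9 FPKM with ethanolamine, 37.9, 38.9 and 40.1 FPKM under hypoxia, and 23.4, 22.5 and 24.3 FPKM in control cells. The hypoxic libraries stood well above control, with a log2 change of 0.73 ± 0.06 (SE; adjusted p = 1.00e-05). Edem1 had 34.6, 35.3 and 35.0 FPKM with ethanolamine, 37.6, 37.5 and 34.2 FPKM under hypoxia, and 24.6, 26.7 and 24.6 FPKM in control cells. It rose by 0.52 ± 0.06 on the log2 scale (SE; adjusted p = 6.61e-05), again with no overlap. Erlec1 (chr11:30930774-30954335) had 7.55, 7.75 and 7.06 FPKM with ethanolamine, 7.63, 7.88 and 7.47 FPKM under hypoxia, and 4.48, 4.68 and 5.48 FPKM in control cells, a log2 change of 0.60 ± 0.08 (SE; adjusted p = 0.000175). It lies within Asb3 on the opposite strand, which averaged 1.82 FPKM under hypoxia and 1.67 FPKM in control cells, and no source used here says whether strand was counted. Os9 averaged 28.1 ± 2.33 FPKM under hypoxia and 22.0 ± 3.00 FPKM in control cells (SD, n = 3 each), a log2 change of 0.35 (adjusted p = 0.0132).

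**Figure D3:**
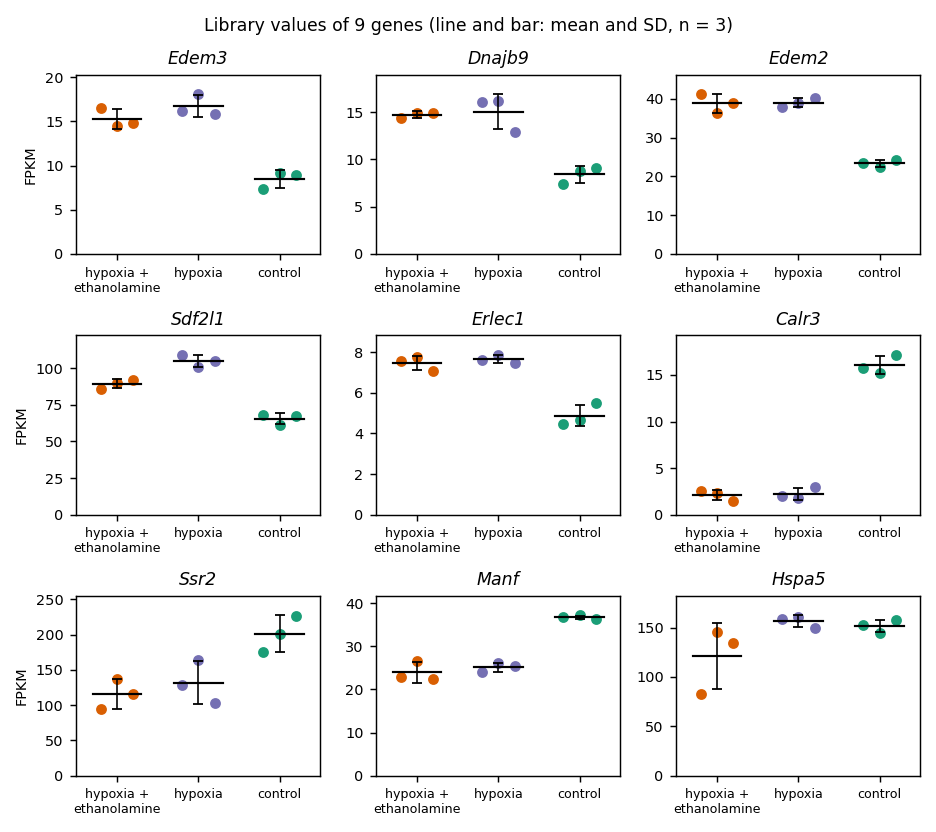
FPKM per library for the 8 called genes with the largest change under hypoxia (of those averaging 5 FPKM or more), and for Hspa5. The group mean is a line and the SD a bar (n = 3 per group). Axes start at 0. Both hypoxic groups lie above control for Edem3, Dnajb9, Edem2, Sdf2l1 and Erlec1 and below it for Calr3, Ssr2 and Manf, while 1 ethanolamine library is low for Hspa5.

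The channel and ligase of ERAD did not pass the test in the fit as reported, though some of these genes passed in other settings. Sel1l and Syvn1 (Hrd1), the adaptor and the ubiquitin ligase that form its core, had log2 changes of 0.37 (adjusted p = 0.0872) and 0.22 (adjusted p = 0.0895). Under median-of-ratios scaling both passed, at 0.47 (adjusted p = 0.0392) and 0.31 (adjusted p = 0.0241). Both also passed under quantile normalisation (adjusted p = 0.0381 and 0.0208) and without control library 1 (adjusted p = 0.0498 and 0.0115). Sel1l passed without hypoxia library 1 as well (adjusted p = 0.0224). Derl1, Derl2 and Herpud1, parts of the same complex, had log2 changes of -0.11, 0.19 and -0.07. Derl2 passed under median-of-ratios scaling (0.28, adjusted p = 0.0333), under quantile normalisation (0.31, adjusted p = 0.017) and without control library 2 (0.26, adjusted p = 0.0391). Derl2 overlaps Mis12 on the opposite strand over 231 bases. Selenos, a selenoprotein of the ERAD membrane complex, fell by 0.32 on the log2 scale (adjusted p = 0.0307), and lost the call without hypoxia library 2 or 3 or control library 2 or 3. It also lost it under median-of-ratios scaling (adjusted p = 0.119), under quantile normalisation (adjusted p = 0.1), without the filter (adjusted p = 0.0661) and with the replicate block (adjusted p = 0.0526).

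At the entry side, the translocon carries proteins into the ER, the TRAP complex assists it, and oligosaccharyltransferase adds the sugar chains. Of 6 genes, 0 rose, 3 fell and 3 did not pass the test under hypoxia. Over all genes tested, 24.7% were higher and 34.7% lower, and the difference from these 6 was not tested. The 3 that fell, Ssr1, Ssr2 and Ssr3, encode TRAP subunits, and each call was lost in some settings. Ssr2 (TRAP beta, chr3:88575876-88588419) had 94.9, 138 and 116 FPKM with ethanolamine, 129, 164 and 103 FPKM under hypoxia, and 176, 201 and 227 FPKM in control cells. The control libraries were the highest, and the log2 change was -0.63 ± 0.19 (SE; adjusted p = 0.0162), lost without hypoxia library 3 (-0.46, adjusted p = 0.0553) or control library 3 (-0.54, adjusted p = 0.0589). A stretch of 366 bases of an Ssr2 transcript is 98.6% identical to one of Rtraf, so its counting is uncertain. Ssr1 and Ssr3 fell by 0.43 (adjusted p = 0.0211) and by 0.21 (adjusted p = 0.013) on the log2 scale. Both calls were lost under median-of-ratios scaling (adjusted p = 0.0576 and 0.123) and without control library 3 (adjusted p = 0.071 and 0.0568), and also under quantile normalisation (adjusted p = 0.0751 and 0.22). Ssr1 further lost its call without the filter and without hypoxia library 1 or 3 or control library 2. Ssr4, the remaining TRAP subunit, is not among the 40 genes and is named after its values were seen. It had 20.9, 26.1 and 34.7 FPKM with ethanolamine, 23.9, 23.3 and 30.5 FPKM under hypoxia, and 19.1, 16.9 and 19.0 FPKM in control cells. Its hypoxia libraries were all above control, a log2 change of 0.48 (adjusted p = 0.0379), opposite in sign to Ssr1, Ssr2 and Ssr3. The Ssr4 call was not examined under the other settings. Sec61a1 and Sec61b, subunits of the Sec61 channel, and Ostc of oligosaccharyltransferase had log2 changes of -0.12, 0.11 and -0.18. Sec24d, the cargo adaptor of the COPII coat that buds vesicles from the ER, averaged 13.9 ± 0.58 FPKM under hypoxia and 10.2 ± 0.05 FPKM in control cells (SD, n = 3 each), a log2 change of 0.42 (adjusted p = 0.000186). Sec31a of the outer coat fell by 0.19 on the log2 scale (adjusted p = 0.0349), a call lost without any single hypoxia or control library except hypoxia library 3. The scalings lowered it to -0.09 (median-of-ratios, adjusted p = 0.257) and -0.088 (quantile, adjusted p = 0.282), and the call was also lost with the replicate block (adjusted p = 0.06) and without the mean-variance trend (adjusted p = 0.0501).

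Of the 21 calls, 15 kept their direction and threshold under all 19 other settings. The 8 higher ones were Dnajb9, Sdf2l1, Edem1, Edem2, Edem3, Os9, Erlec1 and Sec24d, and the 7 lower ones were Hyou1, Dnajb11, Manf, Canx, Calr3, Pdia6 and Atf6b. Some came near the threshold, with a highest adjusted p of 0.05 (rounded) for Os9, 0.0488 for Pdia6 and 0.0461 for Atf6b. The hypoxia and control libraries did not overlap for 10 of the 39 genes in the higher direction, or 25.6% against 27.3% of all genes, and for 13 in the lower direction, or 33.3% against 37.7%.

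Other ER genes of the same pathway gave the setting. Of 152 tested genes in 9 lists, 32 were higher and 41 lower under hypoxia, or 21.1% against 24.7% of all genes and 27.0% against 34.7%. By list the share higher ran from 9.09% (N-glycan processing) to 33.3% (ER-phagy) and the share lower from 12.5% (COPII and exit) to 63.6% (N-glycan processing). In oxidative folding, 4 of 15 rose (26.7%) and 2 fell (13.3%). The thiol oxidase Ero1l averaged 268 ± 22.5 FPKM under hypoxia and 25.0 ± 4.33 FPKM in control cells, and P4hb, the founding disulfide isomerase and a prolyl hydroxylase subunit, averaged 727 ± 42.2 FPKM under hypoxia and 305 ± 14.1 FPKM in control cells (SD, n = 3 each). None of the 3 disulfide isomerases among the 40 genes was called higher. Of 14 other IRE1 and ATF6 partners, 2 rose (14.3%), Creb3 (0.53) among them, and 5 fell (35.7%). The 5 included Nfyb at -0.71, Nfyc at -0.52 and Rtcb, the ligase that joins Xbp1 after splicing, at -0.46 on the log2 scale.

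In the PERK branch, the third arm, 2 of 9 genes rose (22.2%, against 24.7% of all genes) and 4 fell (44.4%, against 34.7%). No list was tested against all genes. Eif2ak3, which encodes PERK, rose by 0.36 on the log2 scale. The stress transcription factor Ddit3 (CHOP) averaged 6.44 ± 0.88 FPKM under hypoxia and 13.0 ± 1.29 FPKM in control cells (SD, n = 3 each), a log2 change of -0.96 (adjusted p = 9.34e-05). Atf4 fell by 0.72 on the log2 scale (adjusted p = 0.0124). Of 16 other lumenal chaperones and exchange factors, 3 rose (18.8%), with Nucb2 at 0.72, and 4 fell (25.0%), with the prolyl isomerase Fkbp11 at -1.47. Of 11 genes of N-glycan processing, 1 rose (9.09%), namely Ngly1, the cytosolic glycanase, at 1.03. Another 7 fell (63.6%), with the glucosidase Mogs at -0.82 and the cargo receptor Lman1 at -0.50. Of 25 other ERAD genes, 6 rose (24.0%) and 8 fell (32.0%). H13 (signal peptide peptidase) was at 0.81, and Get4 and Ubl4a were both at -0.72. Of 24 other genes of COPII and ER exit, 4 rose (16.7%) and 3 fell (12.5%). The retrieval receptor Kdelr3 was at 1.24 and Tfg at 0.42. Of 32 other genes of the translocon, oligosaccharyltransferase and signal peptidase, 8 rose (25.0%) and 7 fell (21.9%). Tusc3 was at 0.71, Sec61g at 0.59 and Rpn1 at -0.64. Of 6 ER-phagy receptors, 2 rose (33.3%), Calcoco1 at 0.70 and Retreg1 at 0.29, and 1 fell (16.7%), Rtn3 at -0.26.

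**Figure D4:**
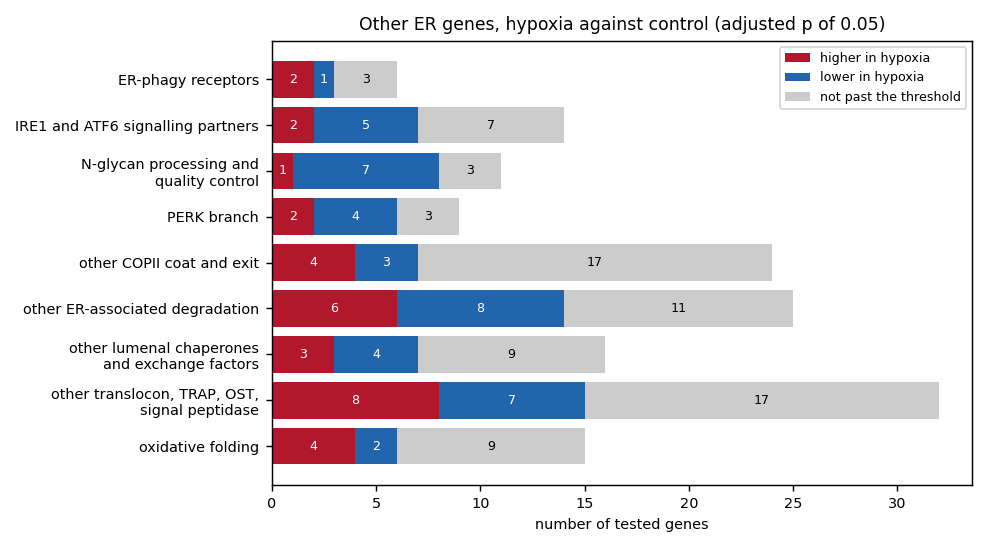
Number of tested genes in each of 9 lists of other ER genes that were higher, lower or not past an adjusted p of 0.05 in hypoxia against control (limma). Oxidative folding has 4 higher and 2 lower, and N-glycan processing 1 higher and 7 lower. Over all genes tested, 24.7% were higher and 34.7% lower.

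Ethanolamine was added under hypoxia, so this comparison holds oxygen and labelled time equal. None of the 39 genes passed the test in either direction (limma, 0 called, against 0.568% of all genes tested), and 8 had an unadjusted p under 0.05, against 14.7% of all genes. The changes were small and mostly downward: 30 of 39, or 76.9%, had a log2 change below 0, against 46.7% of all genes, and the median was -0.07, against 0.01 for all genes. The ethanolamine libraries were all below the hypoxia libraries for 10 genes (25.6%, against 11.2% of all genes) and all above them for 1, Ssr1 (2.56%, against 10.5%). These counts carry no test. Of the 152 other ER genes, 0 were called by limma, and their median log2 change was 0.0016.

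The lowest adjusted p-values belonged to chaperones of the lumen. Sdf2l1, with the library values given above, had a log2 change of -0.23 ± 0.06 (SE; adjusted p = 0.142) and a 95% interval of -0.37 to -0.09. Hsp90b1 had -0.19 ± 0.06 (SE; adjusted p = 0.198) and an interval of -0.33 to -0.06, with all 3 ethanolamine libraries below all 3 hypoxia libraries. Hyou1 had -0.22 ± 0.07 (SE; adjusted p = 0.209), with 1 ethanolamine library inside the hypoxia range. All 10 lumenal chaperones and co-chaperones had log2 changes below 0, against 46.7% of all genes, and 6 (60.0%) had ethanolamine libraries all below the hypoxia ones, against 11.2% of all genes. These shares carry no test. Their summed level was 504, 584 and 549 FPKM with ethanolamine and 630, 655 and 627 FPKM under hypoxia. The ethanolamine sums were all lower, and without Hspa5 they were 421, 438 and 414 FPKM with ethanolamine and 472, 494 and 477 FPKM under hypoxia.

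Hspa5 had the largest difference of the 39, a log2 change of -0.41 with a 95% interval of -0.81 to -0.0074 (adjusted p = 0.334), and 1 library set its size. Ethanolamine library 1 had 83.2 FPKM, 0.553 of the mean of the other 8 libraries, which lay between 134 and 161 FPKM. Without that library the log2 change was -0.16 (adjusted p = 0.334). In that library against the other 2 ethanolamine libraries, Hspa5 lay -0.75 on the log2 scale, rank 59 from the lowest among 7241 genes that average 5 FPKM or more, while the other 38 tested genes lay between -0.41 (Ssr2) and 0.34 (Calr3).

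**Figure D5:**
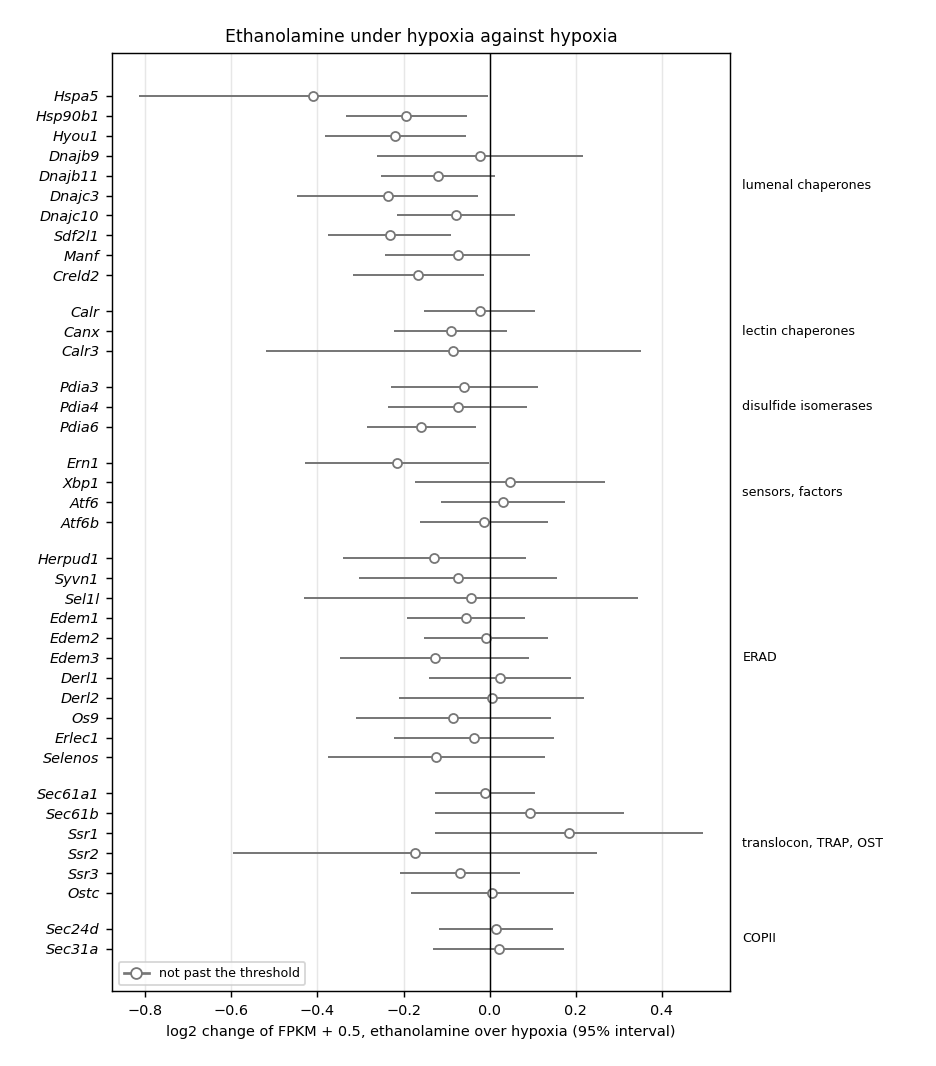
log2 change of FPKM + 0.5, ethanolamine under hypoxia over hypoxia alone, with its 95% interval for each of the 39 tested genes by role; no gene passed the test. All 10 lumenal chaperones lie below 0, from -0.41 (Hspa5) to -0.02 (Dnajb9).

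Ethanolamine gave no call among the ERAD genes that were higher under hypoxia than in control cells. Edem1, Edem2, Edem3, Os9 and Erlec1 had log2 changes of -0.06, -0.01, -0.13, -0.08 and -0.04 for ethanolamine over hypoxia, none past the test, and the widest of their 95% intervals reached -0.34. The sensors Ern1, Xbp1, Atf6 and Atf6b had -0.21, 0.05, 0.03 and -0.01. Calr3 had -0.08 with an interval of -0.52 to 0.35.

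Set against control cells, the ethanolamine libraries gave 9 genes higher and 15 lower, or 61.5% called against 58.5% of all genes tested (24.1% higher and 34.4% lower). Median-of-ratios scaling gave 12 higher and 11 lower (28.9% and 29.6% of all genes), and rescaling without mitochondrially encoded and ribosomal RNA-like transcripts gave 7 higher and 18 lower (21.1% and 37.2% of all genes). This comparison shares its control libraries with that of hypoxia against control, and its ethanolamine libraries with that of ethanolamine against hypoxia, so the values are given side by side only. As a log2 change over control, Edem3 had 0.82 with ethanolamine and 0.94 under hypoxia alone. Sdf2l1 had 0.45 with ethanolamine and 0.68 under hypoxia alone, and Hyou1 had -0.60 with ethanolamine and -0.38 under hypoxia alone. Calr3 had -2.68 with ethanolamine and -2.60 under hypoxia alone.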

How the data were processed

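RNA from 9 BV2 samples (3 groups of 3) was sequenced from libraries made with a SMARTER mRNA kit, per the labels' protocols. The authors deposited FPKM per gene in 1 table, with GRCm38/mm10 named as build in the submitters' processing notes; aligner and quantifier: not given in the sources used here. The deposited FPKM values hold no counts, so depth is unknown and no count test was used. The 11802 genes averaging 1 FPKM or more were tested with limma 3.58.1 in R 4.3.3 (trend, log2(FPKM + 0.5), group means, all 9 libraries, two-sided, Benjamini-Hochberg 0.05), after a test on simulated data. A change on this log2 scale understates that of low genes. Gene spans are from GENCODE mouse release 21, promoters from RefSeq (GRCm38.p6), and near-identical transcripts from BLAST 2.17.0. Library values are printed for the 8 called genes with the largest change under hypoxia, the 3 most abundant, the sensors, the 3 lowest adjusted p for ethanolamine over hypoxia, and genes under the filter; Hspa5, Edem1 and group sums were added after their values were seen. Of the other ER genes, up to 4 per list with the largest called change are named, and Ssr4, Man1b1 and Uggt1 besides. Of 168 such symbols, 167 matched, and Srp54a had 2 identifiers. The genes and lists were chosen with earlier results of these data known. Alternatives were other pseudocounts (0.1 and 1), filters (none and 5 FPKM), scalings and fits, a replicate block, and each library left out. Proteins were not analysed here.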

Additional observations from a re-analysis of the deposited data

How the results depend on the processing

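The number of genes called among the 40, both directions together, stayed within 1.5 times under every alternative run, but not by direction: for hypoxia against control the higher calls were 9, and 14 under median-of-ratios scaling, and the lower calls were 12, and 7 without control library 3. For hypoxia against control it was 21, and 16 to 23 with 1 library left out; for ethanolamine against control it was 24, and 19 to 23 with 1 library left out; for ethanolamine against hypoxia it was 0 by limma in every alternative. Over all genes, the count for ethanolamine against hypoxia was 67, against 40 without the filter, 6 with only the 2 groups compared, 0 with the replicate block, and 0 to 38 with 1 library left out. Direction changed for 5 genes not called in the comparison of hypoxia with control: Calr (hypoxia against control) was 0.080 under median-of-ratios scaling and -0.042 to 0.0071 with 1 library left out (above 0 without hypoxia library 2 or control library 1). Hsp90b1 was -0.0029 under quantile normalisation, and Sec61b was -0.0021 to 0.17 with 1 library left out (below 0 without control library 2). Herpud1 was 0.022 and 0.032, and Dnajc3 0.052 and 0.084, under median-of-ratios scaling and quantile normalisation in that order, and Dnajc3 was -0.12 to 0.035 with 1 library left out (above 0 without hypoxia library 3). Calr was called lower under quantile normalisation (-0.22, adjusted p = 0.025) and Hsp90b1 higher under median-of-ratios scaling (0.20, adjusted p = 0.0167). Dnajc10 passed without control library 1, Derl1 without hypoxia library 1, and Sec61a1 without control library 2, without the filter and after rescaling. The causes were not tested. Same-numbered libraries did not deviate together (correlations from -0.117 to 0.109), and not every library correlated best with its own number, so the numbers were not taken to pair the libraries. With the replicate block the calls among the 40 were 19 for hypoxia against control, 0 for ethanolamine against hypoxia and 22 for ethanolamine against control. With 3 libraries a group and unknown depth, small differences at low levels could not be resolved. Examples are those of Derl3, and of Calr3 between the 2 hypoxic groups. The lower call of Calr3 for hypoxia against control held in all 19 other settings.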
